A study of Mus musculus with 63 samples.

Results

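The miR-34 family was examined in 4 cell populations sorted from mouse kidney in health, during ureteric obstruction and after its reversal. The members were the 5 mature miRNAs named mmu-miR-34a-5p, mmu-miR-34b-5p, mmu-miR-34b-3p, mmu-miR-34c-5p and mmu-miR-34c-3p (mmu, mouse), taken by name from the count table. Each name had 1 locus, so the family made up 5 of the 2110 loci in the table. miR-34a, which has its own locus, was set against the miR-34b/c cluster, which supplied the other 4 loci.

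Male C57BL/6 mice aged 8 to 12 weeks had sham surgery (SH), unilateral ureteric obstruction for 2 days (UUO-2, labelled U2) or 7 days (UUO-7, labelled U7), or 7 days of obstruction followed by reimplantation of the ureter (R-UUO, labelled RU). According to the text of the study, the R-UUO mice were sequenced 14 days after reversal. Digested kidney was sorted into endothelial cells (ECs, CD31+), F4/80hi macrophages (Macs, F4/80), proximal tubular cells (PT cells, binding the lectin LTL) and PDGFR-β+ stromal cells. There were 4 libraries in each of the 16 groups of cell type and condition except UUO-7 PDGFR-β+ cells, which had 3 after the authors removed 1 library, for 63 libraries in all from 16 mice. For each group the study's methods describe sequencing the 4 of 5 operated mice whose kidney injury marker Havcr1 was closest to the mean, so the spread between mice here is that of a selected set.

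The miR-34 family is a textbook set of transcriptional targets of p53, the transcription factor that answers DNA damage and cell stress. Its members carry a shared seed, the short stretch near the 5′ end that pairs with messenger RNAs, and are known for repressing cell cycle genes such as cyclins, cyclin-dependent kinases and E2F factors, and anti-apoptotic genes such as Bcl2. miR-34a is usually the widely expressed member, whereas miR-34b and miR-34c are processed from a shared transcript that is best known from testis, airway and other ciliated epithelia.

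The mature sequences show which members can be expected to pair with the same sites, and each is printed 5′ to 3′ with its seed (bases 2 to 8) in capitals. The RefSeq table used here (GRCm38.p6) held 4 of the 5 members, miR-34c-5p being the one without an entry, and the sequences are taken from it. miR-449a-5p and miR-449c-5p, from a separate chromosome 13 locus, are shown as further miRNAs with the miR-34a seed.
miR-34a-5p: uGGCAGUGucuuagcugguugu
miR-34b-5p: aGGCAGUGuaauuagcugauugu
miR-449a-5p: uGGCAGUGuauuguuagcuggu
miR-449c-5p: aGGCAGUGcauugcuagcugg
miR-34b-3p: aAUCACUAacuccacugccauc
miR-34c-3p: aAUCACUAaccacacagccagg
The first 4 of these sequences share the seed GGCAGUG, and among the 1679 mature names in the table, which do not include miR-34c-5p, no other carried it. The 3p arms of miR-34b and miR-34c share a different seed, AUCACUA, which was likewise found in no other name. After the seed, miR-34a-5p and miR-34b-5p were identical at 4 of the next 14 positions counted from the 5′ end with no gap, and at 11 of the last 14 counted from the 3′ end, miR-34b-5p being 1 base longer. The 3p arms of miR-34b and miR-34c were identical at 9 of the 14 positions after the seed.

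On GRCm38 the mature miR-34a-5p lies on the plus strand of chromosome 4 (chr4:150068473-150068494). Its hairpin gene Mir34a, of 102 bases, overlaps no annotated protein-coding gene in GENCODE M21, and its last 17 bases overlap an exon of Gm37795, a transcript still to be experimentally verified. Mir34b and Mir34c lie on the minus strand of chromosome 9, 451 bases apart, and both fall in an intron of Btg4, a protein-coding gene on the opposite strand. Mature miR-34b-5p is at chr9:51103610-51103632, miR-34b-3p at chr9:51103574-51103595, miR-34c-5p at chr9:51103076-51103098 and miR-34c-3p at chr9:51103044-51103065. None of these 5 loci overlaps a coding exon or a UTR.

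Library depth differed between cell types, which set how low a level could be seen. Total counts ran from 616565 to 10819385 per library, with medians of 7577130 in ECs, 4263850 in PDGFR-β+ cells, 3018040 in Macs and 1043050 in PT cells. The sorted populations held their own marker miRNAs: summed CPM (counts scaled to a common library size) of miR-126a in ECs, of miR-223, miR-142a and miR-155 in Macs, of miR-192, miR-194 and miR-215 in PT cells and of miR-143, miR-145a, miR-199a and miR-214 in PDGFR-β+ cells were higher in every library of the labelled type than in every library of any other type. The separation was narrowest for the PDGFR-β+ list, which had a lowest sum of 92506 CPM in PDGFR-β+ cells and a highest sum of 46029 CPM in ECs. By itself miR-215-5p did not mark PT cells, with a mean of 1.59 CPM there against 1.75 in Macs, 2.09 in ECs and 2.10 in PDGFR-β+ cells.

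miR-34a and the miR-34b/c cluster were most abundant in different cells. miR-34a-5p was highest in Macs and PT cells and lowest in ECs, whereas each arm of the miR-34b/c cluster was highest in PDGFR-β+ cells. Levels here are CPM scaled by the trimmed mean of M values (TMM) over all 63 libraries. miR-34a-5p was at 76.7 ± 10.8 CPM in Macs (SD, n = 16), 48.1 ± 12.2 in PT cells (n = 16), 14.2 ± 6.32 in PDGFR-β+ cells (n = 15) and 7.77 ± 3.17 in ECs (n = 16). Its lowest Mac library, at 56.6 CPM, was above every PDGFR-β+ and EC library, of which the highest were at 23.7 and 13.9 CPM, while Mac and PT libraries overlapped. In the fit over all libraries, averaged over conditions, each neighbour in this order differed: Macs exceeded PT cells by 0.70 ± 0.14 on the log2 scale (SE, adjusted p = 9.02e-06), PT cells exceeded PDGFR-β+ cells by 1.79 ± 0.15 (adjusted p = 3.23e-16), and ECs were lower than PDGFR-β+ cells with a log2 difference of -0.81 ± 0.15 (adjusted p = 4.11e-06). Calls between cell types were common, since 62.3% of 671 loci passed for Macs against PT cells (adjusted p under 0.05 and fold change above 1.5), 63.2% for PT against PDGFR-β+ cells and 40.2% for ECs against PDGFR-β+ cells.

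miR-34c-5p, the most abundant arm of the cluster, was at 732 ± 217 CPM in PDGFR-β+ cells (SD, n = 15), with a lowest library of 332 and a highest of 1143. Its highest library in any other cell type was at 55.7 CPM, in PT cells, so PDGFR-β+ cells did not overlap with the rest. Among the other populations it was at 33.9 ± 9.94 CPM in ECs, 20.4 ± 15.1 in PT cells and 20.1 ± 10.5 in Macs (n = 16 each). ECs exceeded Macs by 0.86 ± 0.17 on the log2 scale (adjusted p = 9.58e-06), where 64.7% of loci were called, but the direction turned when libraries were scaled by their total count alone (-0.46). Macs and PT cells did not differ beyond their spread (0.14 ± 0.19, adjusted p = 0.534), although with library size alone they did (0.71, adjusted p = 0.000319).

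The remaining arms of the cluster followed miR-34c-5p. In PDGFR-β+ cells miR-34b-5p was at 26.9 ± 10.8 CPM (SD, n = 15) and its lowest PDGFR-β+ library, at 10.0 CPM, was above the highest of any other type, at 2.83 CPM in Macs. miR-34b-3p was at 19.2 ± 7.28 CPM in PDGFR-β+ cells against 2.42 ± 1.42 in ECs, 1.57 ± 1.31 in PT cells and 0.824 ± 0.698 in Macs, and here too the lowest PDGFR-β+ library, at 7.60 CPM, was above the highest elsewhere, at 4.99 CPM in ECs. miR-34c-3p, the least abundant member, was at 1.73 ± 1.62 CPM in PDGFR-β+ cells and had 0 counts in 3 of their 15 libraries, so its range overlapped with every other type. All 4 cluster loci were called higher in PDGFR-β+ cells than in the mean of the other 3 types, as were 29.1% of all 671 loci. Within single cell types, miR-34b-5p and miR-34c-3p passed the filter on low counts only in PDGFR-β+ cells. miR-34b-3p passed it only there and in ECs. The calls of these arms therefore rest on the libraries that brought them past the filter and add nothing to the levels given. In sham PT cells miR-34b-5p, miR-34b-3p and miR-34c-3p had 0 counts in all 4 libraries, which allows up to 0.685 CPM (3 counts over the group, counting error only), and miR-34b-5p in sham PDGFR-β+ cells was therefore at least 34.2-fold higher.

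**Figure D1:**
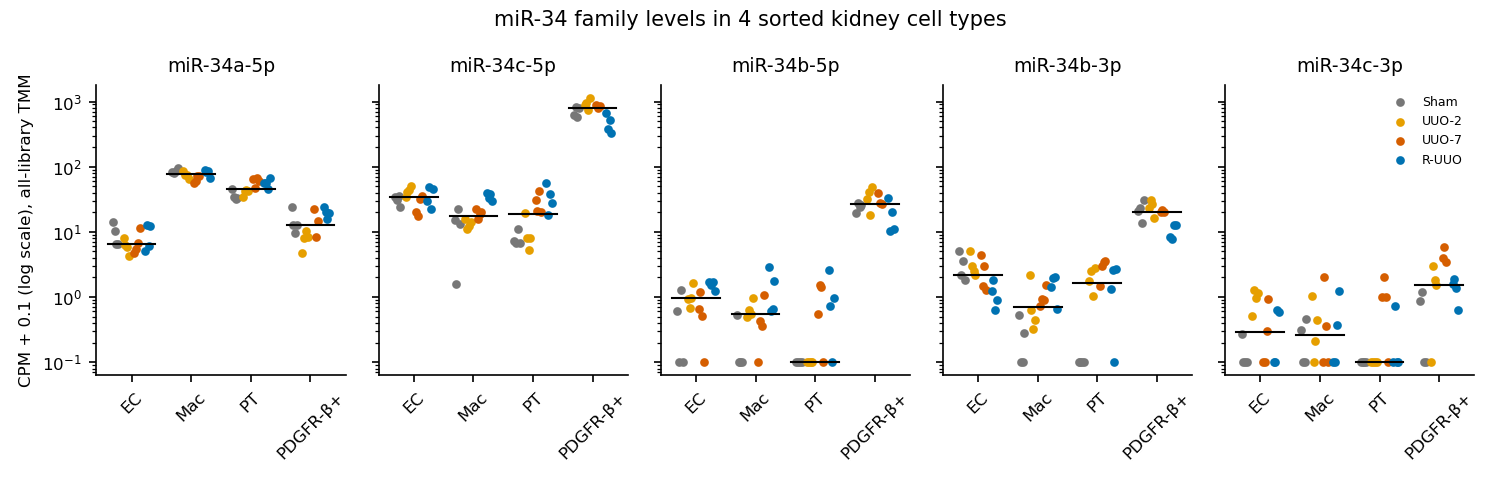
Level of each miR-34 family member by sorted population, as CPM + 0.1 on a log axis, with 1 point per library, coloured by condition, and a line at the median of each cell type. miR-34a-5p is highest in Macs and PT cells (means of 76.7 and 48.1 CPM), and miR-34c-5p stands apart in PDGFR-β+ cells (mean of 732 CPM).

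The make-up of the family therefore differed by population. miR-34a-5p supplied 78.7% of all family counts in Macs and 66.2% in PT cells, whereas miR-34c-5p supplied 92.0% in PDGFR-β+ cells and 74.4% in ECs. Compared within a library, where scaling plays no part, miR-34c-5p counts exceeded miR-34a-5p counts in all 16 EC and all 15 PDGFR-β+ libraries, by a median of 4.02-fold (range 2.41 to 11.2) and 60.3-fold (17.1 to 183). In the 16 Mac and 16 PT libraries miR-34c-5p never exceeded miR-34a-5p, with a median ratio of 0.259 in Macs (0.0203 to 0.451) and 0.346 in PT cells (0.120 to 1.00), the highest being an R-UUO PT library in which both stood at 90 counts.

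With injury, miR-34a-5p rose in PT cells, although the groups overlapped through 1 sham library, and marker miRNAs of other cell types, given further on, were higher in the same libraries. Levels within a cell type are CPM scaled by TMM over that cell type's libraries alone. In sham PT cells miR-34a-5p was at 53.9, 39.6, 37.0 and 39.1 CPM, at UUO-2 at 39.4, 49.0, 50.3 and 46.7, at UUO-7 at 69.7, 53.0, 73.9 and 64.5, and in R-UUO at 67.5, 62.5, 53.7 and 75.2. The highest sham library, replicate 1, overlapped with the lowest UUO-7 and R-UUO libraries, and the other 3 sham libraries lay below all of them. The mean went from 42.4 ± 7.76 CPM in sham (SD, n = 4) to 65.3 ± 9.04 at UUO-7, a log2 fold change of 0.62 ± 0.20 (SE, adjusted p = 0.0172), and 64.7 ± 9.03 in R-UUO (0.61 ± 0.20, adjusted p = 0.0228), with no call at UUO-2 (0.13 ± 0.20, adjusted p = 0.685) or between R-UUO and UUO-7 (-0.01 ± 0.19, adjusted p = 0.989). These calls were slender. With library size alone in place of TMM the differences were 0.25 (adjusted p = 0.488) and 0.17 (adjusted p = 0.666), and the UUO-7 call was lost without sham replicate 2, 3 or 4 or UUO-7 replicate 2 or 4 (adjusted p from 0.0540 to 0.0682), as the R-UUO call was without sham replicate 2, 3 or 4 or R-UUO replicate 2 or 5 (0.0578 to 0.0808).

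In the cell type where it was most abundant, miR-34a-5p was called in no comparison. Mac libraries ran from 126.9 to 139.9 CPM in sham, 123.0 to 144.6 at UUO-2, 99.2 to 134.2 at UUO-7 and 112.1 to 148.6 in R-UUO. The groups overlapped, and the log2 fold changes against sham were -0.01 ± 0.14, -0.25 ± 0.14 and -0.02 ± 0.14 (SE, adjusted p = 0.964, 0.141 and 0.931). With any 1 library left out each fall was larger, at -0.22 to -0.04, -0.49 to -0.37 and -0.21 to -0.08, so the full-set values lay outside these ranges. At UUO-7 the adjusted p then ran from 0.0166 to 0.119 (edgeR), and still no change was called. In ECs miR-34a-5p counted 8 to 81 reads per library, with means of 5.75, 4.18, 4.60 and 5.82 CPM over the 4 conditions, and in PDGFR-β+ cells it was at 11.3 ± 4.26, 6.24 ± 1.79, 11.4 ± 4.87 and 15.1 ± 3.48 CPM. The lowest of these, UUO-2 in PDGFR-β+ cells, gave a log2 fold change of -0.86 ± 0.36 (adjusted p = 0.169) and its libraries overlapped with those of sham.

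miR-34c-5p moved further in PT cells, from a low start. Sham PT libraries held 8, 6, 14 and 7 counts of it, or 8.63, 7.66, 12.6 and 7.83 CPM. UUO-2 libraries were at 22.7, 9.07, 5.83 and 8.94 CPM, UUO-7 libraries at 32.9, 23.5, 47.5 and 22.0, and R-UUO libraries at 67.5, 19.9, 45.6 and 30.9. Every UUO-7 and R-UUO library was above every sham library, while UUO-2 libraries straddled them. The mean rose from 9.19 ± 2.33 CPM (SD, n = 4) to 31.5 ± 11.7 at UUO-7 (log2 fold change 1.76 ± 0.46 SE, adjusted p = 0.00613) and 41.0 ± 20.6 in R-UUO (2.13 ± 0.47, adjusted p = 0.00225), and both calls stood when any 1 library was left out (adjusted p of at most 0.0220). At UUO-2 the log2 difference was 0.29 ± 0.49 (adjusted p = 0.714). Both tested members were thus called in UUO-7 PT cells, as were 43% of all 330 loci, and in R-UUO PT cells, as were 38.8%. Neither was at UUO-2, where 19.1% were, or between R-UUO and UUO-7, where 1.52% were.

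In Macs miR-34c-5p was higher in R-UUO. Sham libraries were at 23.2, 2.34, 35.8 and 18.9 CPM, UUO-2 libraries at 26.6, 19.4, 21.2 and 26.0, UUO-7 libraries at 39.5, 27.8, 35.4 and 30.5, and R-UUO libraries at 66.2, 53.2, 58.5 and 50.3. All 4 R-UUO libraries stood above all others, and sham replicate 2 stood far below with 5 counts. The R-UUO mean of 57.1 ± 6.96 CPM compared with 20.1 ± 13.8 in sham (SD, n = 4), a log2 fold change of 1.49 ± 0.41 (SE, adjusted p = 0.00759). Without sham replicate 2 it was 1.00 (adjusted p = 0.00161). It was the 1 call among 2 members tested there, against 31.9% of all 457 loci. At UUO-2 and UUO-7 neither member was called, where 27.6% and 43.1% of loci were, and the miR-34c-5p differences were 0.20 ± 0.40 (adjusted p = 0.738) and 0.71 ± 0.41 (adjusted p = 0.155). R-UUO libraries did not overlap with UUO-7 ones, with a log2 difference of 0.79 ± 0.40 that did not pass (adjusted p = 0.153), where 19.9% of loci did.

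**Figure D2:**
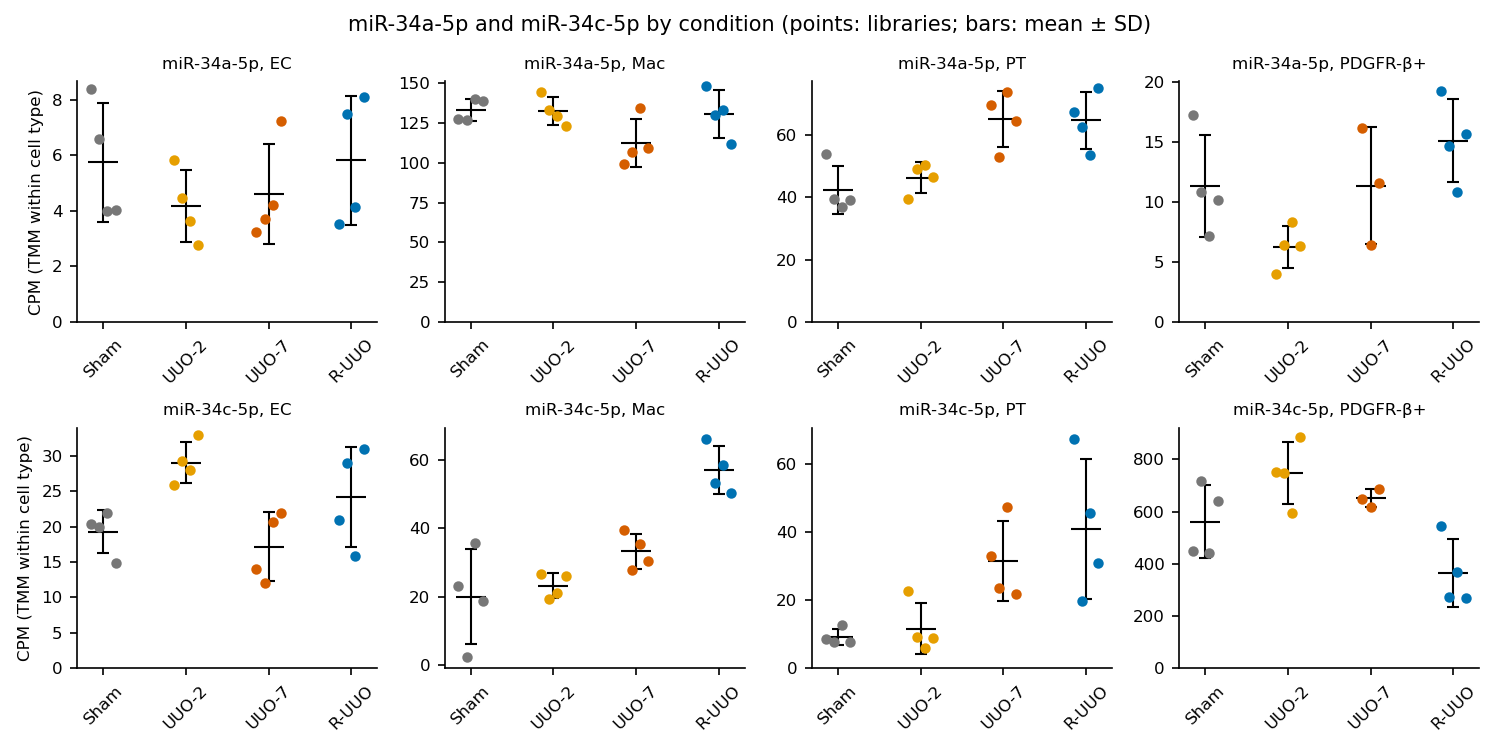
Level of miR-34a-5p (upper row) and miR-34c-5p (lower row) in CPM, scaled within each cell type, by condition, with 1 point per library and bars for the mean ± SD, each panel on its own axis. miR-34c-5p is higher in UUO-7 and R-UUO PT cells than in sham ones (means of 31.5 and 41.0 against 9.19 CPM) and lower in PDGFR-β+ cells in R-UUO (365 against 562 CPM).

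Marker miRNAs of PDGFR-β+ cells were also more abundant in these PT and Mac groups than in sham. The 5 markers summed to a median of 2450 CPM in sham PT libraries (range 1616 to 3496), 7467 at UUO-2 (6671 to 10150), 7966 at UUO-7 (7025 to 18213) and 5208 in R-UUO (3825 to 25835). In Macs the medians were 4053 CPM in sham (1994 to 4985), 8819 in R-UUO (6780 to 9589), 3937 at UUO-7 and 4799 at UUO-2. The sum is mostly miR-143-3p, with a median of 197440 CPM in PDGFR-β+ libraries beside 204502 for all 5 markers. Values set against the sum therefore follow mainly that miRNA. Set against these markers and pooled over conditions, miR-34c-5p had overlapping ranges in the 4 populations, with a median of 2.75 counts per 1000 marker counts in PT cells (range 0.502 to 6.60), 3.51 in Macs (0.750 to 6.87), 2.11 in ECs (1.05 to 3.90) and 3.35 in PDGFR-β+ cells (1.65 to 7.28). At UUO-7 alone PDGFR-β+ cells (4.63 to 6.18) did not overlap with PT cells (2.33 to 4.37) or ECs (1.83 to 2.50), but did with Macs (4.12 to 6.87). In each other condition PDGFR-β+ cells overlapped with every type, although the sham median was 1.92 there and 3.38 in PT cells. The PT library with the highest marker sum, R-UUO replicate 1, was also the one with the most miR-34c-5p (55.7 CPM). At UUO-2 the marker sum of PT cells was above sham in every library while miR-34c-5p was not. In libraries of pooled sorted cells, RNA from a few cells of another type and a change within the labelled cells cannot be told apart, and the part of either in the miR-34c-5p differences was not tested. Other marker lists also differed between these PT groups. The 4 Mac markers summed to 83.2 to 113 CPM in sham PT libraries, 171 to 295 at UUO-7 and 160 to 356 in R-UUO, with no overlap with sham. Per 1000 Mac marker counts PT libraries held a median of 358 miR-34a-5p counts in sham, 237 at UUO-7 and 263 in R-UUO, and Mac libraries a median of 2.91 over all conditions (1.95 to 4.45). The 5 markers of other epithelium (miR-200a, miR-200b, miR-200c, miR-141 and miR-429) summed to 5518 to 5899 CPM in sham PT libraries, 8426 to 11187 at UUO-7 and 6760 to 8748 in R-UUO. The PT markers miR-192, miR-194 and miR-215, taken as a sum, were lower than in sham in every later library. Medians of this sum, which is mostly miR-192-5p, were 126693 CPM in sham, 41714 at UUO-7 and 47811 in R-UUO. The part of these shifts in the miR-34a-5p and miR-34c-5p rises of PT cells was not tested.

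**Figure D3:**
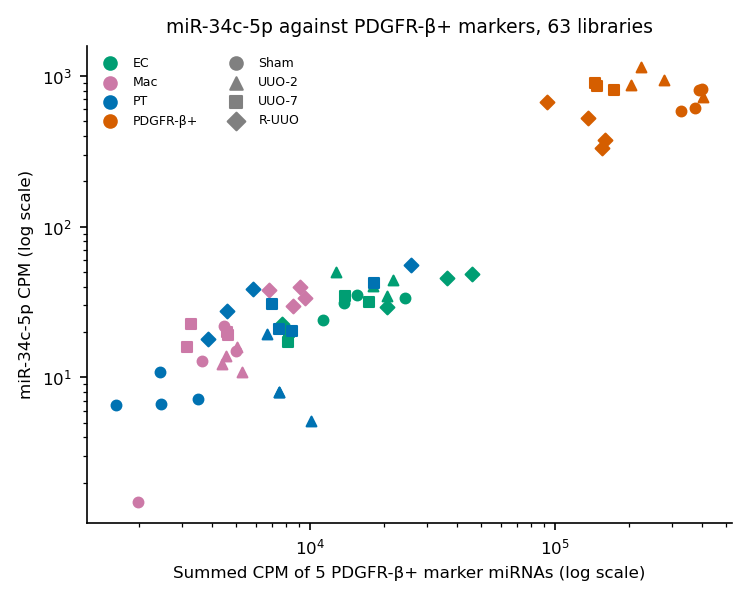
miR-34c-5p (CPM, log axis) against the summed level of 5 PDGFR-β+ marker miRNAs (CPM, log axis) in 63 libraries, coloured by cell type and with a symbol for each condition, both scaled over all libraries. PDGFR-β+ libraries lie at the upper right (at least 92506 CPM of markers), and the other populations hold between 1616 and 46029 CPM of markers and at most 55.7 CPM of miR-34c-5p.

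In PDGFR-β+ cells, where the cluster is most abundant, miR-34c-5p and miR-34b-3p were lower after reversal than in sham, and miR-34c-3p was higher at UUO-7. miR-34c-5p was at 449.8, 717.2, 439.9 and 640.5 CPM in sham, 753.5, 749.1, 596.1 and 887.9 at UUO-2, 649.2, 618.6 and 686.7 at UUO-7, and 546.7, 273.0, 369.3 and 269.6 in R-UUO. The other 3 R-UUO libraries lay below all sham libraries, but replicate 1 lay within the sham range. The mean of 365 ± 130 CPM in R-UUO (SD, n = 4) against 562 ± 139 in sham gave a log2 fold change of -0.62 ± 0.23 (SE, adjusted p = 0.0341), and against 652 ± 34.1 at UUO-7 (n = 3) one of -0.84 ± 0.24 (adjusted p = 0.0632). The first call was lost without sham replicate 2 or 4 or R-UUO replicate 2, 4 or 5 (adjusted p from 0.0521 to 0.103) and with library size alone (-0.32, adjusted p = 0.194), and the second passed without R-UUO replicate 1 (-1.12, adjusted p = 0.00119). UUO-2 and UUO-7 gave 0.41 ± 0.22 (adjusted p = 0.276) and 0.21 ± 0.24 (adjusted p = 0.481) against sham, and the latter changed sign with DESeq2 size factors (-0.01) and passed with library size alone (0.76, adjusted p = 0.00864).

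miR-34b-3p fell in R-UUO PDGFR-β+ cells more firmly. It was at 15.0, 20.5, 10.3 and 24.5 CPM in sham and 6.63, 5.49, 8.72 and 10.3 in R-UUO, so that the highest R-UUO library, at 10.29 CPM, lay just under the lowest sham library, at 10.33 CPM. The log2 fold change was -1.17 ± 0.31 (SE, adjusted p = 0.00652) and held whichever library was left out (adjusted p of at most 0.0260). At UUO-2 and UUO-7 it was at 19.7 ± 5.07 CPM (SD, n = 4) and 15.7 ± 1.05 CPM (n = 3), against 17.6 ± 6.21 in sham (n = 4), with log2 differences of 0.17 ± 0.30 (adjusted p = 0.797) and -0.17 ± 0.33 (adjusted p = 0.690).

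The opposite arm of the same hairpin, miR-34b-5p, was at 14.3, 24.1, 17.8 and 20.3 CPM in sham and 26.3, 7.24, 13.8 and 9.0 in R-UUO. The groups overlapped through R-UUO replicate 1, the highest library of the pair of groups, and the log2 fold change of -0.44 ± 0.38 (SE, adjusted p = 0.369) became -0.92 (adjusted p = 0.0390) without it. At UUO-2 and UUO-7 miR-34b-5p was at 28.2 ± 10.0 CPM (SD, n = 4) and 23.7 ± 4.01 CPM (n = 3), overlapping with the sham libraries (log2 fold changes of 0.56 ± 0.38 and 0.31 ± 0.41, adjusted p = 0.402 and 0.540).

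miR-34c-3p, the passenger arm of the hairpin that yields miR-34c-5p, was at the edge of detection in sham with 4, 4, 0 and 0 counts. At UUO-7 the 3 libraries held 15, 20 and 7 counts, or 2.81, 4.41 and 2.70 CPM against at most 0.964 in sham, a log2 fold change of 2.87 ± 0.96 (SE, adjusted p = 0.0198). The groups did not overlap, but the call was lost without UUO-7 replicate 4 (2.59, adjusted p = 0.0711) or with no filter on low counts (2.86, adjusted p = 0.0546). It passed the filter on low counts through the UUO-7 libraries alone, so it was tested only because it was high there. The call therefore adds nothing to the counts given. Among the 5 members tested in PDGFR-β+ cells, none was called at UUO-2, 1 (miR-34c-3p, let through the filter by that group) was called up at UUO-7 and 2 down in R-UUO against sham, and none between R-UUO and UUO-7, against 6.29%, 48.2%, 41.7% and 3.98% of all 477 loci. The median log2 fold change of all loci in this cell type was itself 0.50 at UUO-7 and 0.40 in R-UUO, beside medians of 0.21 and -0.44 over the 5 members. The PDGFR-β+ marker sum was lower in the same libraries, with medians of 380271 CPM in sham, 148047 at UUO-7 and 145785 in R-UUO. This sum is mostly miR-143-3p, whose mean went from 289542 CPM in sham to 103849 at UUO-7 (scaled within the cell type). Not all markers on the list fell, as the study reports a rise of miR-199 and miR-214 in these cells in late injury. The part of these shifts in the cluster's levels was not tested.

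**Figure D4:**
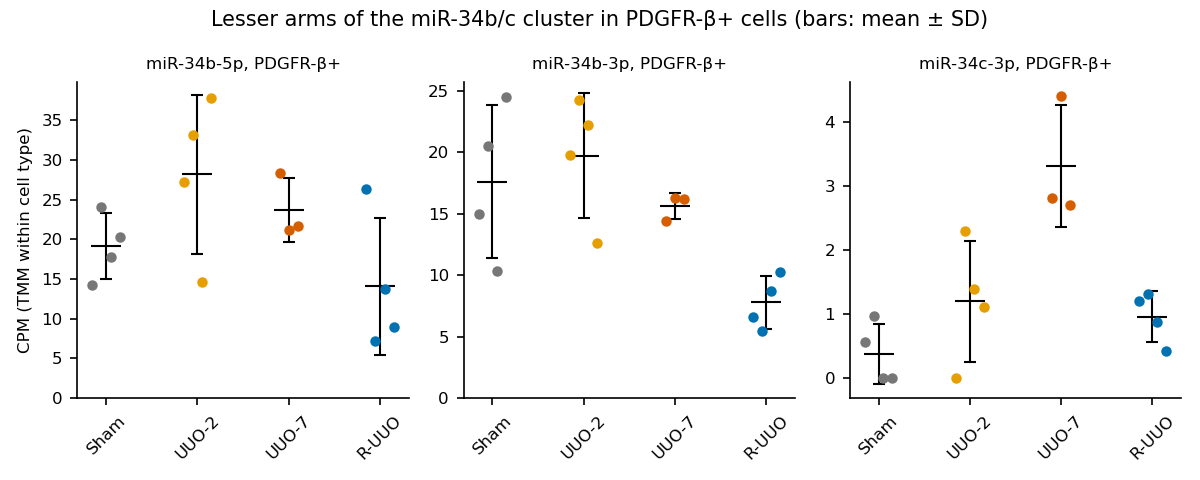
Level of miR-34b-5p, miR-34b-3p and miR-34c-3p in PDGFR-β+ cells in CPM, scaled within the cell type, with 1 point per library and bars for the mean ± SD. miR-34b-3p is lower in R-UUO than in sham (means of 7.78 and 17.6 CPM) and miR-34c-3p is higher at UUO-7 (3.31 against 0.381 CPM).

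In ECs no member passed the test. Of the 3 members tested, 0 were called against sham by edgeR or by DESeq2, where edgeR called 1.71% of 469 loci for UUO-2, 11.5% for UUO-7 and 16.8% for R-UUO. Between R-UUO and UUO-7 edgeR called 0 members and 1.07% of loci, and miR-34c-5p had an unadjusted p of 0.0490 there (edgeR, adjusted p = 0.202). Against sham, 2 tests had an unadjusted p under 0.05. miR-34c-5p was at 20.3, 20.0, 21.9 and 14.9 CPM in sham and at 25.8, 29.3, 28.0 and 32.9 at UUO-2, groups that did not overlap, with a log2 fold change of 0.59 ± 0.24 (SE, unadjusted p = 0.0238, adjusted p = 0.259). miR-34b-3p was at 1.90 ± 0.873 CPM in sham and 0.692 ± 0.292 in R-UUO (SD, n = 4), on 9 to 29 and 1 to 11 counts, with a log2 fold change of -1.34 ± 0.51 (unadjusted p = 0.0186, adjusted p = 0.0746). With library size alone the second of these passed (-1.60, adjusted p = 0.0341).

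Members under the filter on low counts are given by their counts. In PT cells miR-34b-3p had 0 counts in all 4 sham libraries, 2 to 3 at UUO-2, 3 to 15 at UUO-7 and 0 to 4 in R-UUO, and miR-34b-5p had 0 counts at both sham and UUO-2 and at most 6 later. In Macs the 3 lesser arms of the cluster held at most 18 counts in any library, and miR-34b-5p was detected in 1 of 4 sham and 4 of 4 R-UUO libraries. In ECs miR-34b-5p held at most 10 counts and miR-34c-3p at most 5. None of these was tested.

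Whether a change differed between cell types was asked directly, as the UUO-7 change in 1 cell type minus the mean change in the other 3. The miR-34c-5p change in PT cells exceeded that elsewhere by 1.67 ± 0.45 on the log2 scale (SE, adjusted p = 0.00370) and the miR-34a-5p change by 0.98 ± 0.32 (adjusted p = 0.0190), where 23.8% of 671 loci were called. In ECs the miR-34c-5p change was lower than elsewhere, with a difference of -1.15 ± 0.40 (adjusted p = 0.0451), where 11.8% of loci were called. The Mac and PDGFR-β+ changes of both members did not pass (adjusted p of at least 0.274), where 20.1% and 22.8% of loci did. None of the 3 calls was firm. All 3 were lost without replicate 4 of every group (1.24, adjusted p = 0.167; 0.72, adjusted p = 0.235; -1.18, adjusted p = 0.178), the PT calls with library size alone (0.95, adjusted p = 0.0867; 0.28, adjusted p = 0.665), the EC call also without replicate 1, 2 or 3 (-1.06, -1.05 and -1.27) and the miR-34a-5p call also without replicate 2 or 3 (1.02 and 1.04). For UUO-2 against sham and R-UUO against UUO-7 no difference between cell types passed for either member, the lowest adjusted p being 0.0748 for miR-34c-5p in PDGFR-β+ cells (R-UUO against UUO-7, -1.39 ± 0.40). At UUO-2 the share of loci called was 0.149% for ECs, 8.79% for Macs, 11.6% for PT cells and 6.41% for PDGFR-β+ cells, and for R-UUO against UUO-7 it was 0.149%, 0.894%, 0.596% and 0.149%.

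The ratio of miR-34c-5p to miR-34a-5p within each library, which does not depend on scaling, compares the 2 loci directly. In Macs the log2 ratio was -2.46, -5.63, -1.96 and -2.87 in sham, lay between -1.94 and -1.32 at UUO-7 and between -1.28 and -1.15 in R-UUO. Neither later group overlapped with sham, and the mean differences were 1.47 and 2.03 (two-sided exact permutation test, p = 0.0286 for each, adjusted p = 0.114 over 12 comparisons). Without sham replicate 2, the library with 5 counts of miR-34c-5p, the differences were 0.67 and 1.23, still with no overlap. In PT cells the log2 ratio was -2.15 ± 0.45 in sham (SD, n = 4), -1.11 ± 0.37 at UUO-7 and -0.78 ± 0.79 in R-UUO, and both later groups overlapped with sham (exact permutation p = 0.0571 for each, adjusted p = 0.114).

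In PDGFR-β+ cells the differences of the ratio from sham had opposite signs in UUO-2 and R-UUO libraries. The log2 ratio was 4.70 to 6.03 in sham, 6.15 to 7.51 at UUO-2, a difference of 1.25 with no overlap (exact permutation p = 0.0286, adjusted p = 0.114), 5.32 to 6.57 at UUO-7 and 4.10 to 5.09 in R-UUO, a difference of -1.098 from sham (exact permutation p = 0.0857, adjusted p = 0.147). In ECs the UUO-2 difference was 1.01 (exact permutation p = 0.0571, adjusted p = 0.114). With 4 libraries against 4 the smallest possible p is 0.0286, which 3 of the 12 comparisons reached, and with 3 against 4 it is 0.0571. None of the 12 passed once adjusted.

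**Figure D5:**
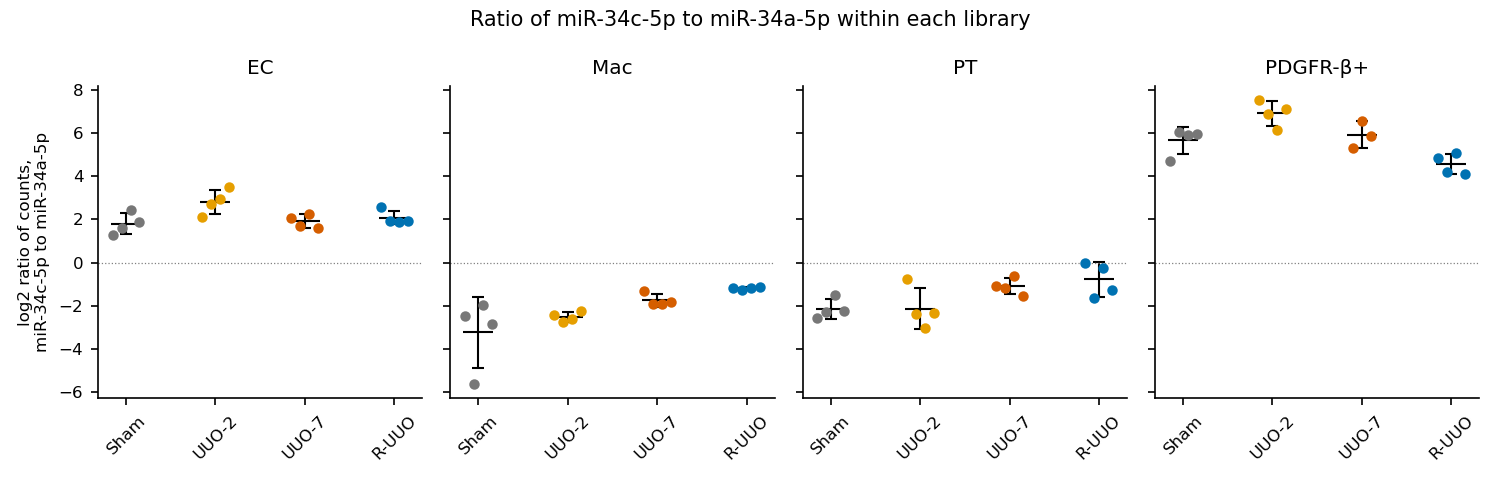
log2 ratio of miR-34c-5p to miR-34a-5p counts within each library (0.5 added to both) by cell type and condition, with 1 point per library, bars for the mean ± SD and a dotted line at equal counts. Every EC and PDGFR-β+ library lies above the line and no Mac or PT library does, and in Macs the R-UUO libraries (-1.28 to -1.15) lie above all sham libraries (at most -1.96).

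The arm that carried the reads differed between the 3 hairpins. miR-34a and miR-34c were read almost wholly from the 5p arm, which held 98.1% to 99.6% of miR-34a counts and 98.2% to 99.7% of miR-34c counts when summed over each cell type. miR-34a-3p held at most 15 counts in any library. miR-34b differed by cell type, with the 5p arm at 57.9% in PDGFR-β+ cells (1398 counts against 1018 of the 3p arm) but at 24.8% in ECs (59 against 179), 39.4% in Macs (50 against 77) and 23.9% in PT cells (16 against 51). The EC share was not even over conditions, at 12.6% in sham (11 against 76), 16.0% at UUO-7, 22.9% at UUO-2 and 54.7% in R-UUO (29 against 24), against 51.6% to 64.1% in PDGFR-β+ cells. Among mice with at least 10 miR-34b counts in both libraries, the 5p share was lower in ECs than in PDGFR-β+ cells in 10 of 11 mice and lower in Macs in 4 of 4. Per library the share ran from 0 to 58.8% in 11 EC libraries (median 16.7%) and from 39.8% to 79.9% in 15 PDGFR-β+ libraries (median 57.1%). No test was made of the arms. Within the cluster, miR-34c-5p exceeded miR-34b-5p 27.1-fold in PDGFR-β+ cells, 44.0-fold in ECs, 34.4-fold in Macs and 38.2-fold in PT cells over summed counts.

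The miR-449 miRNAs, which carry the miR-34a seed and are best known from ciliated epithelia, were scarce. The level of miR-449a-5p was 4.27 ± 2.77 CPM in PDGFR-β+ cells (SD, n = 15), 2.04 ± 1.1 in ECs, 0.574 ± 0.616 in Macs and 0.176 ± 0.285 in PT cells (n = 16 each). It was tested in ECs and PDGFR-β+ cells and passed in no comparison with sham. miR-449c-5p held at most 13 counts in a library, and miR-449b held 0 in all 63.

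Other miRNAs that textbook accounts place under p53 in their transcription or processing moved in both directions. The list held miR-192-5p, miR-194-5p, miR-215-5p, miR-143-3p, miR-145a-5p, miR-15a-5p, miR-16-5p, miR-107-3p, miR-200c-3p and miR-141-3p, which have 12 loci in the table. In PT cells at UUO-7, 4 of the 11 loci tested rose and 4 fell, where 43% of all loci were called, and the median log2 fold change was 0.26 beside 0.00 over all loci. The falls included both loci of miR-194-5p. The rises were of miR-143-3p with miR-145a-5p and of miR-200c-3p with miR-141-3p, neighbours on their chromosomes, so the loci counted are not all separate units. In PDGFR-β+ cells at UUO-7, 0 rose and 6 of 11 fell, where 48.2% of all loci were called (median -0.72 beside 0.50). In Macs 1 rose and 5 of 11 fell, where 43.1% were called (median -0.35 beside 0.22), and in ECs 0 rose and 1 of 12 fell, where 11.5% were called (median -0.25 beside -0.05). Over all comparisons with sham, the largest rises among those called were in R-UUO PT cells, of miR-145a-5p, a smooth muscle and stromal miRNA (4.29 ± 0.85 SE, adjusted p = 0.00106), and of miR-141-3p, an epithelial miRNA of the miR-200 family (3.42 ± 0.53, adjusted p = 0.000134). The first rests largely on R-UUO replicate 1, at 919.6 CPM of miR-145a-5p against 39.1 to 127.0 in the other 3 libraries and 8.95 to 19.2 in sham. Without that library miR-145a-5p still passed but was at 2.33 (adjusted p = 0.000790), below miR-141-3p at 2.80 (adjusted p = 0.000135). The largest falls were in PDGFR-β+ cells, of the stromal miRNA miR-143-3p in R-UUO (-1.76 ± 0.21, adjusted p = 7.74e-06) and of miR-15a-5p, which targets Bcl2, at UUO-7 (-1.73 ± 0.21, adjusted p = 6.69e-06). Several of these miRNAs also stand in the marker lists of PT cells, PDGFR-β+ cells or other epithelium.

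Over the 16 groups of cell type and condition, miR-34b-5p was the miRNA most like miR-34c-5p. The Pearson correlation of group-mean log2 CPM with miR-34c-5p was 0.99 for miR-34b-5p, 0.95 for miR-34b-3p and 0.76 for miR-34c-3p, and -0.50 for miR-34a-5p. Outside the family the miRNAs most like miR-34c-5p were miR-143-3p (0.96), miR-708-5p (0.96) and miR-145a-3p (0.96), and those most like miR-34a-5p were miR-501-3p (0.92), miR-421-3p (0.91) and miR-93-5p (0.88). These values describe 16 group means that share libraries and scaling, and no test was made of them.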

How the data were processed

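Small RNA libraries of sorted cells were deposited as 1 table of raw counts per mature miRNA locus. According to the study's methods and the submitters' processing notes, the authors trimmed reads with Trim Galore 0.4.1 and cutadapt 1.1 (Phred score of at least 20) and aligned them to GRCm38 and miRBase 22 with the Bowtie wrapper ShortStack. How reads matching several loci were placed is not given in the sources used here, and without molecular identifiers intervals and floors cover counting error only. The members and lists were chosen with earlier results of these data known.

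Counts were analysed in edgeR 4.0.16 (R 4.3.3) with filterByExpr, TMM scaling and the quasi-likelihood test, and adjusted p values are Benjamini-Hochberg over all loci of a fit. A locus was called at an adjusted p under 0.05 and a fold change above 1.5. Changes were fitted within a cell type over its 4 conditions, and cell types and differences of changes over all 63 libraries. The ratio of miR-34c-5p to miR-34a-5p was tested by exact permutation (SciPy 1.17.1). DESeq2 1.42.0, other scalings, filters, blocks and each library left out were alternatives, and scripts were tested on simulated data.

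Libraries that share a condition and a replicate number were read as 1 mouse, so the cell types of a mouse are paired. The main fits over all libraries did not use this pairing, and mouse entered as a block only in an alternative. Deviations from group means correlated between cell types of a mouse at -0.295 to 0.267 (above 0.1 in 31 of 93 pairs). The 5 members were named, with the miR-34a 3p arm, the miR-449 miRNAs, at most 4 called miRNAs of the p53 list (the 2 largest rises and falls) and the 3 miRNAs most alike by correlation to miR-34a-5p and to miR-34c-5p. P values set a difference against the spread between these libraries. In the main fits over all libraries they take the libraries of 1 mouse as independent.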

Additional observations from a re-analysis of the deposited data

Results flagged for a closer look

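The UUO-7 change against sham differed between cell types for 3 combinations of member and cell type. PT cells differed from the mean of the other 3 types by 0.98 for miR-34a-5p and by 1.67 for miR-34c-5p on the log2 scale, and ECs by -1.15 for miR-34c-5p.

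Within groups of 4 libraries, 5 of the 70 member and group combinations held a library whose gap to the nearest other exceeded Dixon's critical value of 0.829 of the group's range. The usual chance rate of about 1 in 20 does not apply here, since any count exceeds that value where the other 3 libraries hold 0. miR-34a-5p was at 53.9 CPM in sham PT replicate 1 and at 37.0 to 39.6 CPM in the other 3 libraries. The other 4 rest on few counts. miR-34c-3p was at 3.44 CPM in UUO-7 Mac replicate 3 on 12 counts and at 0 to 0.491 CPM in the rest. miR-34b-5p was at 0.676 CPM in sham Mac replicate 1 on 4 counts, miR-34c-3p at 0.104 CPM in sham EC replicate 1 on 1 count and at 0.687 CPM in R-UUO PT replicate 2 on 1 count, each with 0 counts in the other 3 libraries.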

How the results depend on the processing

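Log2 differences are given under each alternative. Of 360 recomputed values outside the leaving out of libraries, 317 kept their direction and their side of the threshold, and library size alone in place of TMM changed the most. That scaling shifted all loci by -0.35 in PT cells at UUO-7, -0.52 in R-UUO PT cells, 0.52 in PDGFR-β+ cells at UUO-7 and 0.28 in R-UUO PDGFR-β+ cells. Where calls were lost or gained the cause was not tested beyond this shift. Outside PDGFR-β+ cells most libraries held few counts of miR-34b and miR-34c-3p, which limits what can be said of these arms. This included EC libraries, which were deeper than PDGFR-β+ ones (median totals of 7577130 and 4263850).

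Calls lost with library size alone were miR-34a-5p in PT cells at UUO-7 (0.25) and in R-UUO (0.17), miR-34c-5p in R-UUO PDGFR-β+ cells (-0.32) and the difference between PT and other cells in the UUO-7 change of miR-34a-5p (0.28) and miR-34c-5p (0.95). Calls gained were miR-34c-5p in PDGFR-β+ cells at UUO-7 (0.76) and between R-UUO and UUO-7 (-1.08), miR-34b-3p in R-UUO ECs (-1.60) and miR-34c-5p in Macs against PT cells (0.71). Directions turned for miR-34a-5p in R-UUO ECs (-0.23), UUO-2 Macs (0.15), R-UUO against UUO-7 Macs (-0.015), UUO-2 PT cells (-0.059) and UUO-7 PDGFR-β+ cells (0.52), for miR-34b-3p in UUO-7 PDGFR-β+ cells (0.38), for miR-34c-5p between ECs and Macs (-0.46), and for the miR-34c-5p difference in UUO-7 change of Macs (0.25) and PDGFR-β+ cells (0.12). With no filter on low counts miR-34a-5p lost its PT calls (0.73 at UUO-7, 0.69 in R-UUO, 1.01 for the difference from other cells) and miR-34c-5p gained R-UUO against UUO-7 in PDGFR-β+ cells (-0.81).

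DESeq2 size factors and DESeq2 gave -0.013 each for miR-34c-5p in UUO-7 PDGFR-β+ cells, 0.28 and 0.29 for its difference in Macs, and 0.56 and 0.57 for the miR-34a-5p difference in PT cells, no longer called, and DESeq2 size factors gave -1.09 for the miR-34c-5p difference in ECs, no longer called. Fitting only the compared conditions gave 0.55 for miR-34a-5p in R-UUO PT cells and -0.64 for miR-34c-5p in R-UUO PDGFR-β+ cells, neither called, 0.69 for miR-34c-5p in R-UUO against UUO-7 Macs, called, and 0.033 for miR-34a-5p in R-UUO against UUO-7 PT cells. With 1 added to both counts the PT ratio at UUO-2 was -0.0018.

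Replicate numbers across conditions are only names (correlations of -0.332 to 0.270, above 0.1 in 8 of 74 pairs). With them as a replicate block, miR-34a-5p was no longer called in PT cells at UUO-7 (0.62, adjusted p = 0.0553, edgeR) or in R-UUO (0.55, adjusted p = 0.0943), nor miR-34c-3p in UUO-7 PDGFR-β+ cells (3.09, adjusted p = 0.0510), and directions turned for miR-34b-3p in UUO-7 ECs (0.14) and miR-34a-5p in R-UUO ECs (-0.24), R-UUO Macs (0.0050) and UUO-7 PDGFR-β+ cells (0.013). With mouse as a replicate block the miR-34c-5p difference in Macs was 0.10, and no call changed.

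Leaving out 1 library at a time moved miR-34a-5p from -0.59 to 0.077 in UUO-7 ECs, -0.084 to 0.39 in R-UUO ECs, 0.53 to 0.74 in UUO-7 PT cells, 0.49 to 0.73 in R-UUO PT cells, -0.10 to 0.062 in R-UUO against UUO-7 PT cells and -0.37 to 0.26 in UUO-7 PDGFR-β+ cells. For miR-34c-5p the ranges were -0.26 to 0.033 in UUO-7 ECs, -0.33 to 0.39 in UUO-2 Macs, -0.27 to 0.52 in UUO-2 PT cells, -0.011 to 0.62 in R-UUO against UUO-7 PT cells, and in PDGFR-β+ cells -0.89 to -0.50 in R-UUO and -1.12 to -0.71 against UUO-7. For miR-34b-3p they were -0.18 to 0.56 and -0.57 to 0.20 in UUO-2 and UUO-7 ECs and -0.038 to 0.37 and -0.38 to 0.028 in UUO-2 and UUO-7 PDGFR-β+ cells. Differences in the UUO-7 change ran from -1.39 to -1.05 for miR-34c-5p in ECs, -0.38 to 0.40 in Macs and 1.24 to 2.01 in PT cells, and for miR-34a-5p from -0.52 to 0.28 in PDGFR-β+ cells and from 0.72 to 1.24 in PT cells. The log2 ratio ran from -0.068 to 0.32 in UUO-7 ECs, -0.085 to 1.14 in UUO-2 Macs, -0.43 to 0.32 in UUO-2 PT cells and -0.055 to 0.57 in UUO-7 PDGFR-β+ cells.

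Among alternatives that keep all libraries, counts of loci called moved by over 1.5 times in few comparisons. At UUO-2 in ECs, 8 became 5 with library size alone, 16 with DESeq2 and 28 with no filter. For R-UUO against UUO-7, 5 became 2 to 39 in ECs, 19 became 7 to 55 in PDGFR-β+ cells and 5 became 0 to 24 in PT cells. At UUO-2, 63 became 96 in PT cells with only those conditions, and 30 became 49 in PDGFR-β+ cells with no filter. With 1 library left out the R-UUO against UUO-7 counts became 1 (without R-UUO replicate 5) to 16 (without UUO-7 replicate 4) in ECs, 0 (without UUO-7 replicate 2 or 5 or R-UUO replicate 4) to 19 (without R-UUO replicate 5) in PT cells and 3 (without UUO-7 replicate 5) to 75 (without R-UUO replicate 1) in PDGFR-β+ cells. The EC count fell to 35 at UUO-7 without sham replicate 2 and to 4 or 5 at UUO-2 without sham replicate 2, 3 or 4 or UUO-2 replicate 1 or 4. At UUO-2 the PT count fell to 38 or 41 without sham replicate 4 or UUO-2 replicate 1 or 4, and the PDGFR-β+ count to 19 without sham replicate 4.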
